A study of Mus musculus with 12 samples.

Results

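Genes for the respiratory chain complexes were followed in regulatory T cells (Tregs), a CD4 T cell class that holds immune responses in check, on 12 Affymetrix mouse arrays. Every gene whose symbol begins with Nduf, Uqcr, Sdha to Sdhd, Cox4, Cox5, Cox6, Cox7 or Cox8 was taken, which gave 77 genes of the 18193 gene symbols measured. Each gene was read from 1 probe set, the one with the highest mean over the arrays, out of 154 probe sets for these genes. By complex, 42 genes belonged to complex I, 8 to complex II, 8 to complex III and 19 to complex IV. They included 8 assembly factors of complex I (Ndufaf1 to Ndufaf8), 4 of complex II (Sdhaf1 to Sdhaf4) and 8 tissue-restricted isoforms of complex IV. A filter on low values left 73 of the 77 for testing, and the 4 below it were the isoforms Cox7a1, Cox7b2, Cox8b and Ndufa4l2.

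The cells were freshly isolated, untreated and purified by flow cytometry from wild-type mice (WT), mice without Ebi3 (Ebi3 –/–, here Ebi3_KO), mice without Il10 (Il10 –/–, Il10_KO) and mice without both (Ebi3 –/– Il10 –/–, DKO). Il10 encodes interleukin-10, and Ebi3 encodes a chain that interleukin-35 shares with interleukin-27. Interleukin-10 and interleukin-35 are inhibitory products of Tregs. Each genotype had 3 arrays, 1 in each of 3 labelled batches, so each batch held 4 arrays, 1 of each genotype. The labels give no strain, age, sex, knockout allele or meaning of batch, and do not say whether replicates came from separate animals, so p-values measure only the spread between these samples.

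The respiratory chain sits in the inner mitochondrial membrane. Complex I takes electrons from NADH and complex II takes them from succinate, both pass them to ubiquinone, complex III hands them on to cytochrome c, and complex IV gives them to oxygen. Complexes I, III and IV pump protons as they do so, and ATP synthase uses the proton gradient. Most subunits are encoded in the nucleus, while a small catalytic set is encoded in mitochondrial DNA, and Tregs are known to rely on oxidative metabolism more than activated conventional T cells do.

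Signals are MAS5 signals in arbitrary units, scaled by the authors to the same trimmed mean on each array, so a difference is relative to the other probe sets of that array. Differences are in log2(signal + 20), with the standard error (SE) of the fit. A gene was called when its p-value, adjusted over all 31235 tested probe sets, was under 0.05. A probe set's signal depends on its own probes, so levels were compared between arrays and never between genes. In bulk RNA, fewer cells of a type and less RNA per cell cannot be told apart.

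The arrays carried the Treg markers and other cells' markers in amounts that differed by batch. Foxp3 lay between 4945 and 7955 on all arrays, and the summed signal of 7 Treg markers was 53745 to 54501 in batch 1, 52930 to 58511 in batch 2 and 35756 to 42782 in batch 3. The summed signal of 6 myeloid and dendritic cell markers was 2742 to 3737, 2219 to 4307 and 21374 to 38716 in the same order, and that of 5 neutrophil markers was 1082 to 4297, 1164 to 3433 and 4736 to 14981. Signal from the 3′ end of the Gapdh control transcript exceeded that from its 5′ end by 1.72 to 1.74 (log2) in batch 1, 3.31 to 4.51 in batch 2 and 1.82 to 2.75 in batch 3. The Ebi3 probe set followed its labels, at 1062.5 to 2057 in WT and Il10_KO and 3.0 to 72.5 in Ebi3_KO and DKO, whereas the Il10 probe set, at 184.5 to 2940, did not separate the genotypes.

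**Figure D1:**
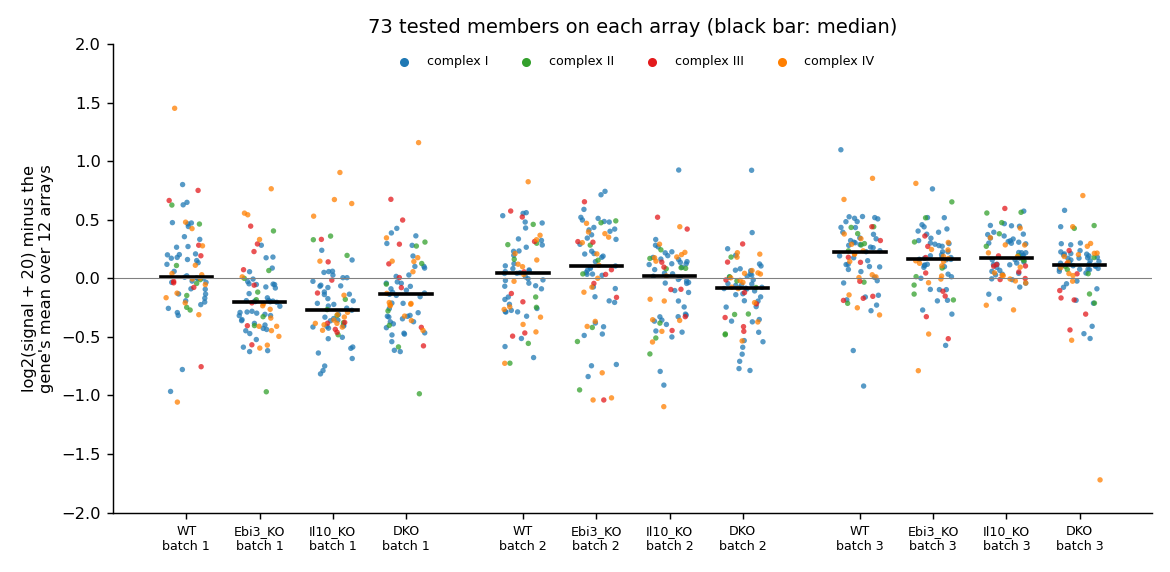
The 73 tested respiratory chain genes on the 12 arrays, as log2(signal + 20) minus each gene's own mean over the arrays (vertical axis), with 1 column per array, ordered by batch and then genotype, points coloured by complex and a black bar at the median. The medians are 0.01 for WT and -0.27 to -0.14 for the knockouts in batch 1, -0.08 to 0.11 in batch 2 and 0.11 to 0.23 in batch 3.

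The upstream sequences of 4 genes are shown because each was the gene of its complex with the largest called difference between batches among those with a promoter entry, and because the 4 moved in different directions. Of the 77 genes, 63 had an entry in the RefSeq promoter table (build GRCm38.p6), and the 120 bases before the annotated start are printed 5′ to 3′ on the gene's own strand. Capitals mark a match to one of 4 motifs, and only Ndufaf4 and Uqcrh have one in the bases shown. Ndufaf4 lies at chr4:24897963-24898082 on the plus strand, Sdhaf4 at chr1:24005641-24005760 on the minus strand, Uqcrh at chr4:116075071-116075190 on the minus strand and Cox8a at chr19:7217617-7217736 on the minus strand.
Ndufaf4: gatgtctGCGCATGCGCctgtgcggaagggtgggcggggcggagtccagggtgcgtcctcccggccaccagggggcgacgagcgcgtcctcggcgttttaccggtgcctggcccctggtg
Sdhaf4: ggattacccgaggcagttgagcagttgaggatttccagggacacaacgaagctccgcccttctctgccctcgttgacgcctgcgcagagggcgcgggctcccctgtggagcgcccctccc
Uqcrh: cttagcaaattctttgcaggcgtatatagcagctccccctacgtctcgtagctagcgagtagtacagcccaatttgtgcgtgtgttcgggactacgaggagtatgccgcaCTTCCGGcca
Cox8a: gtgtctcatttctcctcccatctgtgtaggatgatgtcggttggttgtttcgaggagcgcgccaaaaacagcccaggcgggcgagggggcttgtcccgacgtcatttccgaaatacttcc

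Ndufaf4 holds the core GCATGCGC of NRF1, a regulator of nuclear genes for mitochondrial proteins, on both strands with an overlap, first at base -113 from the start. Uqcrh holds the core CCGGAAG of ETS factors such as GABP, on the opposite strand and so printed as CTTCCGG, at base -10. In the whole windows of 300 bases (250 before to 50 after the start, both strands), the NRF1 core was found in 8 of the 63 genes (12.7%) and in 3.05% of 27025 genes. The ETS core was found in 16 of the 63 (25.4%), against 9.93% of all genes, and the YY1 core AAGATGGC in 7 (11.1%), against 3.19%. The E-box CACGTG was found in 2 (3.17%), against 8.09%. The motifs were searched as exact letters and do not contain one another. A match is a string in a window and not a measured binding site.

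No respiratory chain gene passed the test in any genotype comparison. Against WT, 0 of 73 were called in Ebi3_KO, where 0.0032% of all tested probe sets were, 0 of 73 in Il10_KO (0.0064% of all) and 0 of 73 in DKO (0.0096% of all). With batch as a block in the model the count was again 0 in each, with 0.0032%, 0.0384% and 0.0416% of all probe sets called. At an unadjusted p under 0.05 the counts were 1, 0 and 1 without the block, where 1.41%, 1.98% and 2.14% of all probe sets passed. With the block they were 6 in each comparison, where 5.31%, 7.68% and 8.25% of all passed. The F test over the 4 genotypes called 0 of 73 (0.0096% of all, and 0.0416% with the block), and its lowest adjusted p among the 73 genes with the block was 0.662.

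The genes lay slightly below WT in the knockouts, and the arrays of batch 1 moved these medians. The median log2 difference over the 73 genes was -0.08 in Ebi3_KO, with 54 genes below 0, against a median of -0.03 over all tested probe sets. It was -0.13 in Il10_KO, with 60 genes below 0, where all probe sets had a median near 0 (-0.001). It was -0.14 in DKO, with 59 below 0, against 0.01 over all. The 3 comparisons share the WT arrays, so their medians are not independent.

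The differences were largest in batch 1. Within batch 1 the median differences of Ebi3_KO, Il10_KO and DKO from the WT array were -0.28, -0.32 and -0.22. Within batch 2 they were 0.08, -0.03 and -0.09, and within batch 3 they were -0.05, 0.01 and -0.13. Without WT replicate 1, and with the block, the medians became 0.002 for Ebi3_KO, -0.02 for Il10_KO and -0.04 for DKO. Without Ebi3_KO replicate 1 and without the block, the median of Ebi3_KO was 0.07.

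Another set of genes also set WT replicate 1 apart. The summed signal of 20 immediate-early and handling genes, which respond within minutes to signals and to cell isolation, was 62930 on WT replicate 1 and 212049 to 234871 on the other 3 arrays of batch 1. Within batch 1 these genes had median differences of 1.85, 1.73 and 1.85 in Ebi3_KO, Il10_KO and DKO. Their part in the lower respiratory chain signals of the batch 1 knockouts was not tested.

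**Figure D2:**
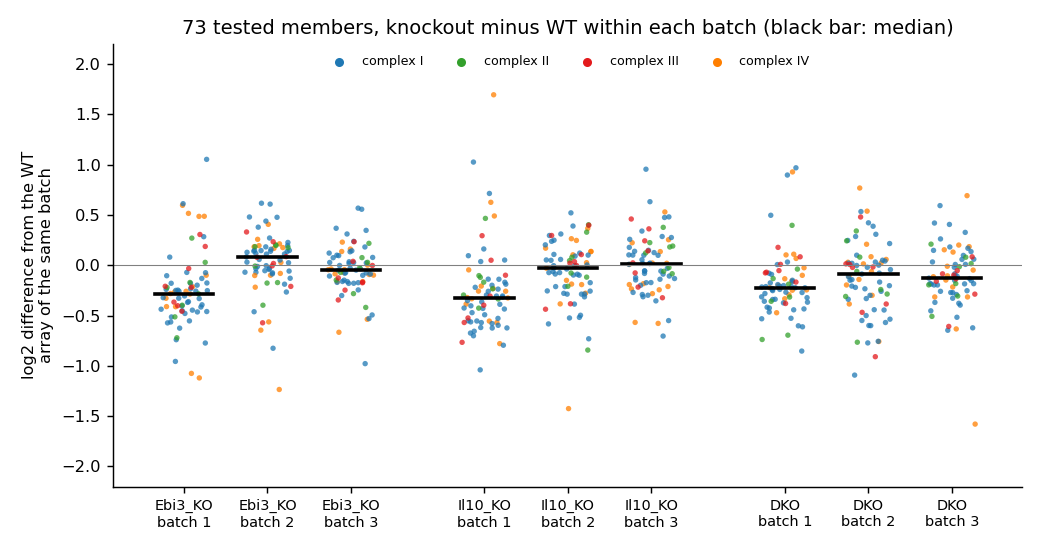
Log2 difference of each of the 73 tested genes from the WT array of the same batch (vertical axis), for the 3 knockouts and 3 batches, with points coloured by complex and black bars at the medians. In batch 1 the medians are -0.28, -0.32 and -0.22 for Ebi3_KO, Il10_KO and DKO, and in the other batches they lie between -0.13 and 0.08.

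The 42 complex I genes had medians of -0.06, -0.16 and -0.16 in Ebi3_KO, Il10_KO and DKO. The 8 complex II genes had -0.15, 0.0 and -0.14, the 8 complex III genes -0.10, -0.06 and -0.15, and the 15 tested complex IV genes -0.08, -0.13 and -0.08. Other lists were read in the same comparisons. The 76 mitochondrial ribosomal protein genes had -0.15, -0.13 and -0.18 and the 16 ATP synthase genes -0.09, -0.13 and -0.16. The 44 cytosolic ribosomal protein genes had 0.05, 0.004 and -0.05, the 16 tricarboxylic acid cycle genes 0.007, -0.05 and -0.10, and the 12 glycolysis genes 0.03, 0.05 and 0.01. In each of these lists 0 genes were called. Of 13 mitochondrially encoded subunits, 1 had a probe set with a single gene symbol, and it was not called either.

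No core subunit of a complex was called by genotype. The 6 nuclear core subunits of complex I lay between -0.15 and 0.10 in Ebi3_KO, between -0.30 and -0.08 in Il10_KO and between -0.26 and -0.07 in DKO, with SEs of 0.19 to 0.37. In Il10_KO and DKO all 6 were below 0. Sdha had 0.03, 0.07 and 0.01 in Ebi3_KO, Il10_KO and DKO (SE 0.19), Sdhb -0.04, -0.11 and -0.14 (SE 0.24), Sdhc -0.15, -0.01 and -0.08 (SE 0.40) and Sdhd -0.29, 0.04 and -0.14 (SE 0.40). Uqcrfs1 had 0.07, 0.06 and 0.02 (SE 0.37), and Uqcrc1 and Uqcrc2, the large proteins that face the matrix, had -0.23 to -0.05. Cox4i1 had 0.03, -0.02 and -0.03 (SE 0.19), Cox5a -0.14, -0.21 and -0.24 (SE 0.24) and Cox5b -0.04, -0.10 and -0.04 (SE 0.20).

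Ndufaf4, an assembly factor of complex I, had the smallest p of the 73 genes with the block in Il10_KO. Its signals in batches 1, 2 and 3 were 1040, 2978 and 1075 in WT and 2138, 3909.5 and 2102 in Il10_KO. The Ebi3_KO arrays read 2179.8, 2868 and 1372, and the DKO arrays 1955, 3902 and 1430.3. The Il10_KO array was the higher one in each batch, while the groups overlapped across batches. The difference between Il10_KO and WT was 0.79, with an SE of 0.47 without the block and 0.19 with it, and the adjusted p with the block was 0.313. Without the block it was 0.50 when Il10_KO replicate 2 was left out and 1.28 when WT replicate 2 was. For each gene named next, the SE of the genotype difference is given without the block and then with it, and the adjusted p without the block was 1.0. The other tested probe set of Ndufaf4 had a difference of the opposite sign, -0.36.

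Ndufaf3, which works in the same assembly pathway, had the smallest p with the block in Ebi3_KO. Its signals were 637, 395 and 576 in WT and 319, 214 and 403 in Ebi3_KO, so Ebi3_KO was lower in each batch by 0.96, 0.83 and 0.49 on the log2 scale. The difference was -0.76 (SE 0.31 and 0.18), with an adjusted p of 0.812 with the block. In Il10_KO the 3 signals were 392, 314 and 499 and in DKO 489.6, 308.5 and 433, between the WT and the Ebi3_KO array in each batch.

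Cox8a, a small subunit of complex IV, and Ndufa6, an accessory subunit of complex I, came next in Ebi3_KO. Cox8a differed by -0.64 (SE 0.59 and 0.23) and Ndufa6 by -0.47 (SE 0.36 and 0.18), and both had an adjusted p of 0.91 with the block. Without WT replicate 1 the differences were -0.04 for Cox8a and -0.24 for Ndufa6. On all arrays, the other tested probe sets of Cox8a had 0.123 and -0.064 in Ebi3_KO. In Il10_KO the accessory subunits Ndufa13 and Ndufs5 differed by -0.36 (SE 0.30 and 0.12) and -0.44 (SE 0.27 and 0.18), with adjusted p of 0.555 and 0.622 with the block. Ndufa13 had -0.14 without Il10_KO replicate 1 and -0.57 without Il10_KO replicate 2.

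Ndufb10, an accessory subunit of the membrane arm of complex I whose gene lies on chromosome 17, as Ebi3 does, had the smallest p with the block in DKO. Its signals in batches 1, 2 and 3 were 3892, 5238 and 3738.5 in WT and 2556, 2446 and 3360.4 in DKO. The Ebi3_KO arrays read 3095, 4971 and 3995, and the Il10_KO arrays 2968, 3489 and 3882.5. Every DKO array was below every WT array, whereas the single knockouts overlapped WT. The difference was -0.62 (SE 0.23 and 0.17), with an adjusted p of 0.402 with the block, and -0.38 without the arrays of batch 2. On all arrays Ndufb10 differed from WT by -0.103 in Ebi3_KO and -0.306 in Il10_KO. Its average difference was -0.206 by Ebi3 genotype and -0.409 by Il10 genotype. Ndufa7, another accessory subunit with its gene on chromosome 17, differed by -0.52 (SE 0.24 and 0.17) in DKO, with an adjusted p of 0.477 with the block. Without DKO replicate 2 the difference was -0.31, and the other tested probe sets of Ndufa7 had -0.395 to -0.093 on all arrays. Ndufv3, also on chromosome 17, had a mean log2 value of 12.04 in DKO and 11.97 in WT. Any part of the chromosome in these differences was not tested. Ndufaf4 came next by p with the block in DKO, with a difference of 0.56 (SE 0.47 without the block) and -0.198 on its other tested probe set.

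Averaged over the genotypes of the other gene, lack of Ebi3 gave 0 of 73 calls (0.0032% of all probe sets, 0.0064% with the block) and lack of Il10 gave 0 of 73 (0.0128% of all, 0.064% with the block). At an unadjusted p under 0.05, 0 of 73 genes passed for Ebi3 (1.38% of all) and 1 for Il10 (2.22% of all). With the block, 3 of 73 passed for Ebi3 (4.54% of all) and 10 of 73 for Il10 (8.62% of all). The 3 for Ebi3 were Ndufaf3 (-0.365, SE 0.22 without the block), Ndufa6 (-0.322, SE 0.25) and Cox8a (-0.363, SE 0.42). Cox8a had -0.06 without WT replicate 1, and 0.0 and -0.179 on its other tested probe sets. Ndufa13 had an average difference of -0.29 by Il10 genotype (SE 0.21 and 0.085), Ndufaf4 of 0.45 (SE 0.33 and 0.13) and Ndufb10 of -0.41 (SE 0.16 and 0.12), each with an adjusted p of 0.402 with the block. These were -0.18 for Ndufa13 without DKO replicate 1, 0.25 for Ndufaf4 without DKO replicate 2 and -0.21 for Ndufb10 without the arrays of batch 2. The interaction, which asks whether the double knockout differs from the sum of the single ones, called 0 of 73 genes and 0% of all probe sets, with or without the block. At an unadjusted p under 0.05 without the block it gave 0 of 73 (1.28% of all), and with the block 2 of 73 (3.94% of all). Those 2 were Ndufaf3 (0.79, SE 0.44 and 0.26) and Ndufaf4 (-0.68, SE 0.66 and 0.26), the latter with -1.17 without WT replicate 2 and -0.36 without DKO replicate 3. The other tested probe set of Ndufaf4 had opposite signs, with -0.113 for the average difference by Il10 genotype and 0.483 for the interaction.

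Many more of these genes were called by batch than by genotype. The F test over batches, with genotype in the model, called 45 of the 73 genes (61.6%), where 41.8% of all tested probe sets were called. Between batches 1 and 2, 21 genes were higher in batch 2 (28.8%, against 9.32% of all) and 13 were lower (17.8%, against 18.8% of all). Between batches 1 and 3, 26 genes were higher in batch 3 (35.6%, against 10.2%) and 3 were lower (4.11%, against 18.5%). Between batches 2 and 3, 18 were higher in batch 3 (24.7%, against 11%) and 4 were lower (5.48%, against 9.98%). These comparisons share batches and are not independent. The genes were read on their probe sets of highest mean, whereas the shares cover all tested probe sets, weak ones included. The median log2 value of an array was 6.64 to 6.77 in batch 1, 6.31 to 6.49 in batch 2 and 6.34 to 6.4 in batch 3. The 95th percentile was 11.72 to 11.77, 11.85 to 11.9 and 11.84 to 11.87. The part of signal level in these counts was not tested.

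The median log2 differences over the 73 genes were 0.12 for batch 2 minus batch 1, 0.33 for batch 3 minus batch 1 and 0.08 for batch 3 minus batch 2. The medians over all tested probe sets were -0.18, -0.16 and -0.01. With each array centred on its own median, the medians over all tested probe sets were 0.13, 0.20 and 0.04. Of the 73 genes, 36 were then higher and 6 lower in batch 2 than in batch 1, where 19.7% and 9.03% of all probe sets were. In batch 3 against batch 1, 53 were higher and 1 lower (25.5% and 10.1% of all), and in batch 3 against batch 2, 19 were higher and 1 lower (12.2% and 8.69% of all). With quantile normalization the splits were 14 higher and 11 lower (12.1% and 11.9% of all), 23 and 3 (13.5% and 12.4%), and 17 and 3 (10.2% and 9.65%). Batch 3 also carried the higher myeloid and neutrophil signals given above, and batch 2 the higher 3′ to 5′ control differences, and their part in these results was not tested.

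**Figure D3:**
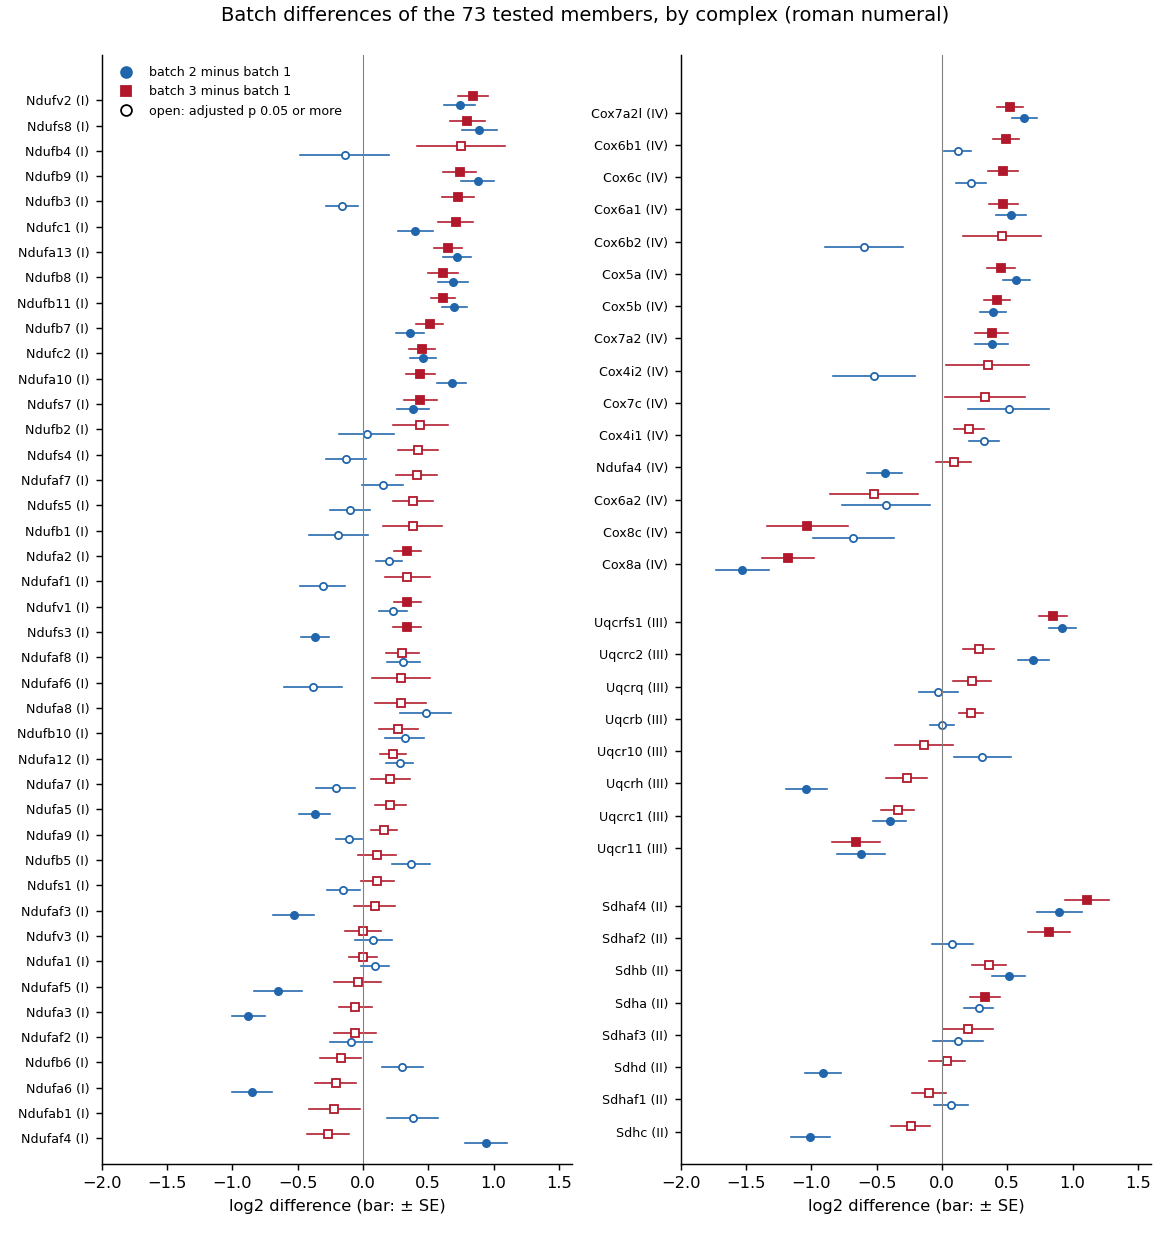
Log2 differences of batch 2 (blue circles) and batch 3 (red squares) from batch 1 for the 73 tested genes, with complex I at left and complexes IV, III and II at right, bars of ± 1 SE, and filled symbols where the adjusted p was under 0.05. Cox8a lies lowest at -1.53 and -1.18, Sdhaf4 and Uqcrfs1 lie at 0.85 to 1.11, and the chosen probe sets of Sdhc, Sdhd and Uqcrh are called lower in batch 2 but not in batch 3.

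In complex I, 6 nuclear core subunits were tested, of which 5 were higher in batch 3 than in batch 1 on their chosen probe sets (10.2% of all probe sets). These subunits carry the flavin and the iron-sulphur clusters that lead electrons from NADH to ubiquinone, or the protein frame around them. Ndufv2 read 5351, 4072, 3616 and 4492 in batch 1 (WT, Ebi3_KO, Il10_KO and DKO, an order kept below). It read 7342, 8338, 7158 and 6301 in batch 2 and 8754, 8130.2, 7154 and 7248 in batch 3. All 8 arrays of the later batches exceeded all 4 of batch 1, by 0.74 ± 0.12 in batch 2 and 0.84 ± 0.12 in batch 3 (adjusted p = 0.000622 and 0.00016). The other tested probe sets of Ndufv2 had smaller differences, 0.115 and 0.496 in batch 2 (adjusted p = 0.615 and 0.0473). In batch 3 they had 0.182 and 0.284 and were not called (adjusted p = 0.396 and 0.245).

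Ndufs8, which holds iron-sulphur clusters next to the ubiquinone site, read 6120.3, 4732, 4345 and 4770.1 in batch 1. It read 8793.5, 12247.5, 8279 and 7965 in batch 2 and 7948, 9015, 8514 and 9015 in batch 3. Both later batches lay above batch 1 on every array, by 0.89 ± 0.14 and 0.80 ± 0.14 (adjusted p = 0.0005 and 0.000721). Ndufs7, which holds the last cluster before ubiquinone, was higher by 0.38 ± 0.12 and 0.44 ± 0.12 (adjusted p = 0.0353 and 0.0161). The other tested probe set of Ndufs7 had the opposite sign, with -0.293 and -0.095, and was not called. Ndufv1, the flavin subunit where NADH binds, was higher in batch 3 by 0.34 ± 0.11 (adjusted p = 0.0282), and its difference of 0.23 ± 0.11 in batch 2 was not called. The other tested probe sets of Ndufv1 had -0.336 and 0.228 in batch 2. In batch 3 they had -0.044 and 0.255 and were not called.

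Ndufs3, a core subunit of the arm between NADH and the membrane, took another course. It read 3385, 3147, 2752 and 2939.9 in batch 1, 2476, 2171, 2429.6 and 2344 in batch 2 and 4242, 3788, 3937.5 and 3541 in batch 3. No array of one batch overlapped those of another. Against batch 1, batch 2 was lower (-0.37 ± 0.11, adjusted p = 0.0208) and batch 3 higher (0.34 ± 0.11, adjusted p = 0.0295). Ndufs1, the largest core subunit, was called in none of the comparisons of batches (-0.15 ± 0.13, 0.11 ± 0.13 and 0.26 ± 0.13).

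Of the 28 accessory subunits of complex I, 8 were higher and 3 lower in batch 2 than in batch 1 (9.32% and 18.8% of all probe sets). In batch 3 against batch 1, 10 were higher and 0 lower (10.2% and 18.5% of all). The membrane arm subunits Ndufb8 (0.69 ± 0.11 and 0.61 ± 0.11) and Ndufb11 (0.70 ± 0.09 and 0.61 ± 0.09) and the accessory subunits Ndufa10 (0.68 ± 0.11 and 0.44 ± 0.11) and Ndufa13 (0.72 ± 0.11 and 0.65 ± 0.11) were higher in batches 2 and 3, with every array of both above batch 1. The other tested probe set of Ndufa10 had -0.039 and -0.246, and that of Ndufb8 had 0.451 and 0.438, none of them called. For Ndufb11, one other probe set was called in both (0.627 and 0.517) and another in neither (0.231 and -0.019). Ndufb9, an accessory subunit of the membrane arm, read 6257.5, 4968, 4052 and 4625 in batch 1, 8405, 11736, 7992 and 8517 in batch 2 and 8077.5, 8781, 7773 and 8263 in batch 3. Its arrays in both later batches lay above batch 1, by 0.88 ± 0.13 and 0.74 ± 0.13 (adjusted p = 0.000352 and 0.000731).

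Ndufb3, also of the membrane arm, read 4306, 3139, 2980.0 and 3112 in batch 1, 3192, 3309, 2978 and 2534 in batch 2 and 5509, 6499, 5207 and 5191 in batch 3. Batch 3 stood above both others, by 0.73 ± 0.12 over batch 1 and 0.90 ± 0.12 over batch 2 (adjusted p = 0.000639 and 0.00029). Ndufa3, an accessory subunit, was lower in batch 2 than in batch 1 (-0.88 ± 0.13, adjusted p = 0.000359) and higher in batch 3 than in batch 2 (0.81 ± 0.13, adjusted p = 0.000649). Ndufa5 and Ndufa6, also accessory, were lower in batch 2 than in batch 1 (-0.37 ± 0.12 and -0.85 ± 0.15) and higher in batch 3 than in batch 2 (0.58 ± 0.12 and 0.64 ± 0.15). Ndufab1, the mitochondrial acyl carrier protein, and Ndufb6, of the membrane arm, were lower in batch 3 than in batch 2 by -0.59 ± 0.20 and -0.47 ± 0.16, close to the threshold (adjusted p = 0.0462 and 0.0482). Both calls were lost when 1 of several arrays was left out, with values of -0.36 and -0.41 without WT replicate 3.

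Of the 8 assembly factors of complex I, 1 was higher and 2 lower in batch 2 than in batch 1, against 9.32% and 18.8% of all probe sets. In batch 3, 0 were called against batch 1, and 4 were higher and 1 lower than in batch 2 (11% and 9.98% of all). Ndufaf4, whose signals on all arrays are given above, was higher in batch 2 than in batch 1 by 0.94 ± 0.16 (adjusted p = 0.00108) and lower in batch 3 than in batch 2 (-1.21 ± 0.16, adjusted p = 0.000248). Its lowest signal in batch 2 was 2868 and its highest in either other batch was 2179.8. Its other tested probe set had differences of -0.20 and 0.40 in these comparisons, neither of them called.

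**Figure D4:**
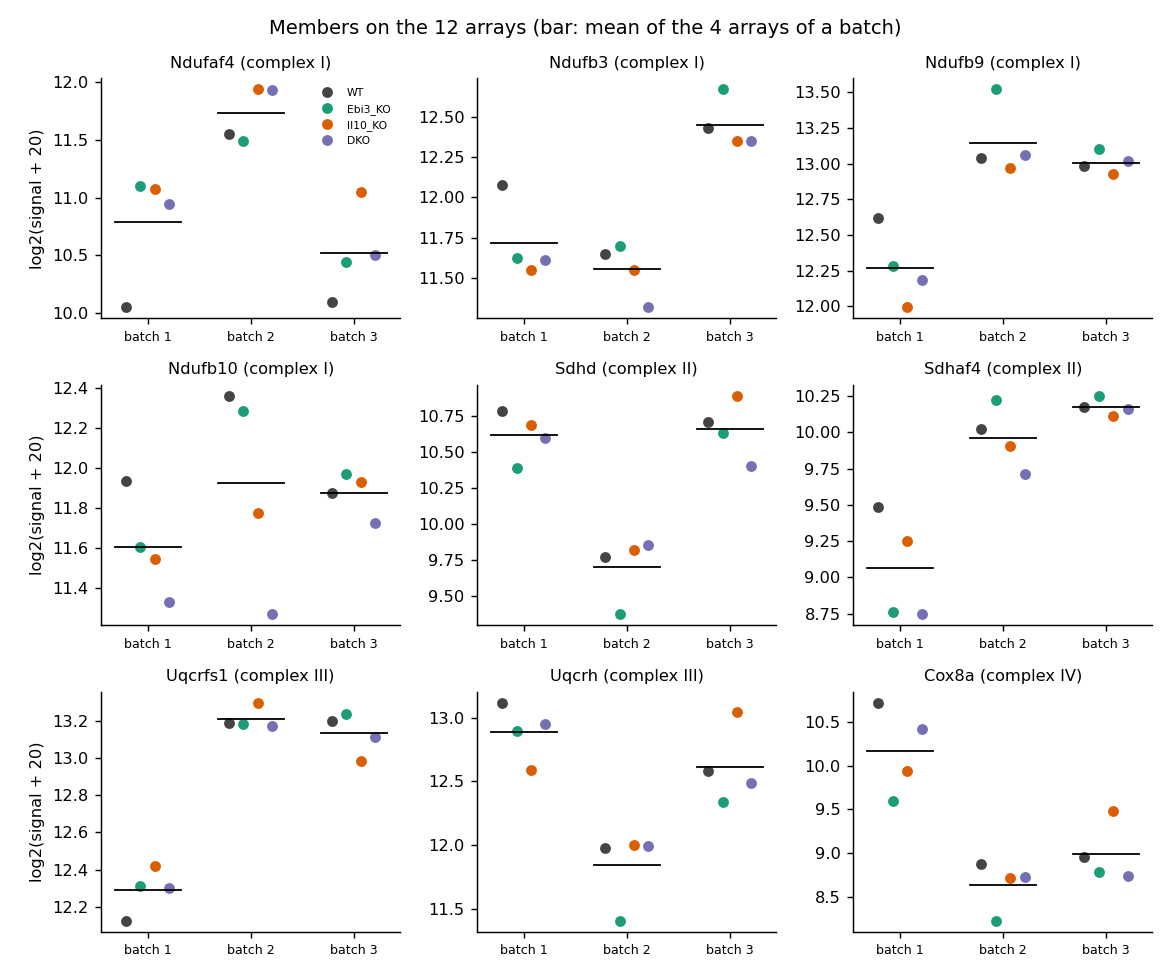
Log2(signal + 20) of 9 respiratory chain genes (vertical axis, scaled to each gene) on the 12 arrays, by batch (horizontal axis), with colours for genotypes and black bars at the mean of the 4 arrays of a batch. Ndufaf4 is high in batch 2, Sdhd and Uqcrh are low in batch 2, Uqcrfs1, Sdhaf4 and Ndufb9 are low in batch 1 and Cox8a is high in batch 1.

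Complex II is succinate dehydrogenase. Its subunits Sdhc and Sdhd, which anchor it in the membrane, were lower in batch 2. Sdhc read 2029.4, 1739, 1649 and 1627 in batch 1, 784, 894, 829 and 932 in batch 2 and 1598, 1191, 1828 and 1407 in batch 3. Sdhd read 1749.9, 1324.5, 1629 and 1533.5 in batch 1, 854, 643.5, 882 and 904 in batch 2 and 1652, 1572, 1877.5 and 1333 in batch 3. For both genes every array of batch 2 lay below every other array, with differences from batch 1 of -1.01 ± 0.15 and -0.91 ± 0.14 (adjusted p = 0.00042 and 0.000456). In batch 3 against batch 1, these probe sets of Sdhc (-0.24 ± 0.15) and Sdhd (0.04 ± 0.14) were not called. The other tested probe set of Sdhc was lower in both later batches, by -1.30 in batch 2 and -0.81 in batch 3 (adjusted p = 0.0017 and 0.0237). That of Sdhd was not called in either, with -0.54 in batch 2 and -0.69 in batch 3 (adjusted p = 0.212 and 0.109), nor in batch 3 against batch 2, where it had -0.15 and the chosen one 0.95.

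Sdhb, the iron-sulphur subunit, was higher in batch 2 than in batch 1 by 0.51 ± 0.13 (adjusted p = 0.0104). Sdha, the flavin subunit where succinate is oxidised, was higher in batch 3 than in batch 1 by 0.33 ± 0.11 (adjusted p = 0.0412). Sdhaf4, which binds flavinated Sdha during assembly, read 697, 415, 589.6 and 409.7 in batch 1, 1019, 1175, 937 and 818 in batch 2 and 1135, 1197.5, 1088 and 1124 in batch 3. All arrays of the later batches exceeded those of batch 1, by 0.90 ± 0.17 and 1.11 ± 0.17 (adjusted p = 0.00177 and 0.000311). Sdhaf2, which helps attach the flavin to Sdha, was higher in batch 3 than in batch 1 by 0.82 ± 0.16 (adjusted p = 0.00174), with 0.08 ± 0.16 in batch 2.

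In complex III, Uqcrfs1, the Rieske iron-sulphur protein that passes electrons on from ubiquinol, read 4442, 5059, 5450.1 and 5025 in batch 1. It read 9335, 9298, 10052 and 9203 in batch 2 and 9391.5, 9646, 8078 and 8849.5 in batch 3. Batch 1 was low on all 4 arrays, by 0.92 ± 0.10 against batch 2 and 0.85 ± 0.10 against batch 3 (adjusted p = 9.9e-05 and 7e-05). Uqcrc2, a core-region protein of the complex, was higher in batch 2 than in batch 1 by 0.70 ± 0.12 (adjusted p = 0.00087), and its partner Uqcrc1 was lower there (-0.40 ± 0.13, adjusted p = 0.0308). Uqcrc2 was also lower in batch 3 than in batch 2 (-0.42 ± 0.12, adjusted p = 0.0197), a call lost without any one of WT replicate 2, WT replicate 3 and Il10_KO replicate 2 (-0.40 to -0.30). The other tested probe set of Uqcrc2 was not called in these comparisons (0.22 and 0.23), and it was higher in batch 3 than in batch 1 (0.46, adjusted p = 0.00256), where the chosen one had 0.28 and was not called.

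Uqcrh, the hinge protein at cytochrome c1, read 8843, 7592, 6142 and 7869 in batch 1, 4026, 2701, 4085 and 4065 in batch 2 and 6125, 5156, 8431 and 5719 in batch 3. Batch 2 lay below the other batches on every array, by -1.04 ± 0.16 against batch 1 (adjusted p = 0.000503). Uqcr11, a small subunit, was lower than in batch 1 in batch 2 (-0.62 ± 0.18, adjusted p = 0.0224) and in batch 3 (-0.66 ± 0.18, adjusted p = 0.0156), with overlap between arrays. The batch 3 call for Uqcr11 was lost without DKO replicate 1 (-0.57) and without DKO replicate 3 (-0.52), and with median centring (-0.31).

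In complex IV, Cox8a had the largest difference between batches of the 73 genes. It read 1662, 754, 960.5 and 1353 in batch 1, 448, 279.5, 402 and 405 in batch 2 and 475, 422, 695 and 406.5 in batch 3. Batch 1 was higher on every array, and the differences were -1.53 ± 0.20 in batch 2 and -1.18 ± 0.20 in batch 3 (adjusted p = 0.000229 and 0.000771). Its other 2 tested probe sets were also lower, by -0.68 and -1.48 in batch 2 and by -0.65 and -1.47 in batch 3.

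Cox5a and Cox5b, which flank the catalytic core, were higher in both later batches on their chosen probe sets. Cox5a read 11807, 9679, 10225 and 11599 in batch 1, 17616, 17972, 15418 and 13492 in batch 2 and 16707, 14928, 14105 and 13423 in batch 3, with no overlap with batch 1. The differences were 0.57 ± 0.11 and 0.45 ± 0.11 for Cox5a (adjusted p = 0.00168 and 0.00614), and 0.39 ± 0.10 and 0.42 ± 0.10 for Cox5b (adjusted p = 0.00914 and 0.0059). For Cox5a, 1 other tested probe set was called in both (0.553 and 0.437) and another in neither (0.247 and -0.045). The others of Cox5b had -0.083 to 0.594 in batch 2, called only at 0.322. In batch 3 they had 0.134 to 0.589, called only at 0.347. Cox4i1, the regulatory subunit that binds ATP, had 0.32 ± 0.12 and 0.21 ± 0.12 and was not called (adjusted p = 0.0513 and 0.194). Cox7a2l, which joins complexes III and IV into supercomplexes, was higher by 0.63 ± 0.10 and 0.52 ± 0.10 (adjusted p = 0.000553 and 0.00142). Of its other tested probe sets, 1 was called in both (0.728 and 0.571) and another in neither (-0.249 and 0.212).

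The isoforms found in most tissues and their tissue-restricted counterparts were read on separate probe sets. On its chosen probe set, Cox6a1 was higher in batches 2 and 3 than in batch 1 (0.53 ± 0.11 and 0.47 ± 0.11), and Cox7a2 likewise (0.38 ± 0.12 in each). The other tested probe set of Cox6a1 was called lower in batch 2 (-0.646) and had -0.29 in batch 3, not called. That of Cox7a2 had -0.083 and 0.036 and was not called. Cox6b1 was higher in batch 3 alone (0.49 ± 0.10, and 0.12 ± 0.10 in batch 2), and Ndufa4 was lower in batch 2 (-0.44 ± 0.14). The other tested probe set of Cox6b1 had -0.296 in batch 2 and was called higher in batch 3 (0.345). Among the counterparts, Cox8b and Cox7b2 reached the filter, the array's 40th percentile, on 0 of 12 arrays and Cox7a1 and Ndufa4l2 on 2. Cox6b2, an isoform known from testis, reached it on 4 arrays, Cox4i2, known from lung, on 6, and Cox6a2, of heart and skeletal muscle, and Cox8c, of testis, on 11.

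Cox8c was lower in batch 3 than in batch 1 (-1.03 ± 0.31, adjusted p = 0.0237). It read 200, 288, 319 and 210.2 in batch 1 and 144, 164, 161 and 35 in batch 3. The call was lost without the DKO array of batch 3 (-0.60), without each knockout array of batch 1 (-1.05 to -0.95) and with quantile normalization (-0.68). Cox6b2 was higher in batch 3 than in batch 2 (1.06 ± 0.30, adjusted p = 0.0221), with signals of 4.5 to 18.9 in batch 2 and 36.6 to 69.8 in batch 3. These signals are near the added 20, and 5 single arrays each ended the Cox6b2 call when left out (0.96 to 1.07).

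Different probe sets of a gene did not always move together. Of the 73 tested genes, 41 had other tested probe sets, 71 in all. In batch 2 against batch 1, 38 of the 71 had the sign of the chosen probe set, in batch 3 against batch 1, 38, and in batch 3 against batch 2, 39. Where both were called in batch 2 against batch 1, 13 of 18 had the same sign, and the others belonged to Cox6a1, Ndufb7, Ndufb9, Ndufc1 and Ndufc2. For Ndufb9 the other probe set had -0.61 (adjusted p = 0.033) against 0.88 for the chosen one, for Ndufb7 it had -1.03 against 0.36, and for Ndufc2 -0.80 against 0.46. In batch 3 against batch 1, 12 of 13 had the same sign and the other was of Sdha (-1.19 against 0.33). The lower signals of Cox8a, Sdhc, Uqcrh and Ndufa3 in batch 2 were called on at least 1 other probe set as well, and the higher signal of Ndufs8 there was called on 2 of 5 others. The lower signal of Sdhd was not called on its other probe set. The difference between the 3′ and 5′ control signals was larger in batch 2 than in batch 1 on every array, and its part in the disagreement was not tested.

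**Figure D5:**
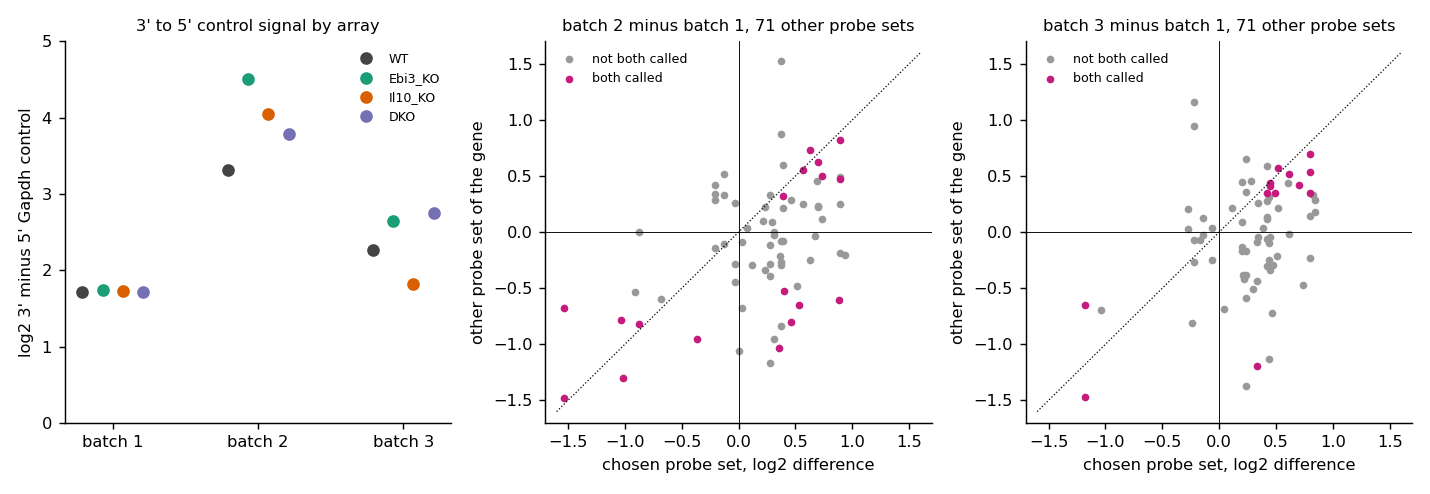
At left, the log2 difference between the 3′ and 5′ Gapdh control probe sets (vertical axis) on each array by batch, from 1.72 to 1.74 in batch 1 and from 3.31 to 4.51 in batch 2. In the middle and at right, the log2 difference of each of 71 other probe sets (vertical axis) against that of the gene's chosen probe set (horizontal axis) for batches 2 and 3 minus batch 1, with pairs where both were called in pink and the dotted line where both would be equal; in the middle, 5 of 18 pink points lie in the lower right quadrant.

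Counts for other lists stand against the same shares of all probe sets, 9.32% higher and 18.8% lower in batch 2 and 10.2% and 18.5% in batch 3. Of the 76 mitochondrial ribosomal protein genes, 15 were higher and 19 lower in batch 2 than in batch 1, and 26 were higher and 0 lower in batch 3 than in batch 1. Of 16 ATP synthase genes, 4 were higher and 4 lower in batch 2, and 5 higher and 2 lower in batch 3. Of 16 tricarboxylic acid cycle genes, 7 were higher and 4 lower in batch 2, and 10 higher and 1 lower in batch 3. Of 44 cytosolic ribosomal protein genes, 8 were higher and 4 lower in batch 2, and 3 higher and 2 lower in batch 3. Of 18 regulators of mitochondrial genes, 2 were higher and 1 lower in batch 2 (Tfb2m, Esrra and Sirt3), and 2 were higher and 3 lower in batch 3, among them Nrf1, Tfam and Esrra.

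Over the 12 arrays the median Pearson correlation was 0.21 over all 2628 pairs of the 73 genes, 0.27 within complexes and 0.18 between them, against 0.01 over all genes tested. After batch means were removed the values were 0.24, 0.31 and 0.20. Pairs within complex I had a median of 0.31 before and 0.35 after removal, and made up 861 of the 1022 pairs within complexes. Pairs within complex II had 0.03 and 0.13, within complex III 0.0 and 0.19 and within complex IV 0.01 and 0.07. The mitochondrial ribosomal protein genes had 0.34 and 0.28, the cytosolic ribosomal protein genes 0.25 and 0.38 and the tricarboxylic acid cycle genes 0.47 and 0.08. All pairs share the same arrays and their scaling, and no test was made.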

How the data were processed

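RNA was measured on 12 Affymetrix Mouse 430 2.0 arrays. Per the labels' protocols, RNA was extracted with a Qiagen RNeasy kit and 1 µg was amplified and biotin-labelled by the Affymetrix protocol. MAS5 and Partek 6.4 are named in the submitters' processing notes. The authors deposited log values that, as read from the values, are natural logs of signal + 20, with MAS5 signals. Linear or log2 values had been planned for. They were converted to log2(signal + 20) without further normalization.

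Testing required a value at or above the 40th percentile of the array for 3 or more arrays (31235 probe sets of 45101, with 64 controls left out). Gene names came from the 34945 probe sets with 1 symbol, of which 34741 matched RefSeq (GRCm38.p6) by gene identifier. limma 3.58.1 in R 4.3.3 (lmFit, eBayes with trend) was fitted with 4 genotypes, and with genotype and batch for batch comparisons, with Benjamini-Hochberg adjustment over all tested probe sets. The fits were tested on simulated data. Alternatives were a batch block, quantile normalization, median centring, an offset of 100, no filter, no trend, the mean over probe sets and arrays left out.

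The labels give each replicate number as a batch. After genotype means were removed, arrays of the same number correlated at 0.325 to 0.664 (18 pairs) and others at -0.531 to -0.0204, and 12 of 12 correlated best with their own number.

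The genes, lists and naming rule were chosen with earlier results of these data known. Named genes are core subunits and isoforms, the 3 of smallest p with the block in each genotype comparison, and up to 5 of largest change in each direction among calls between batches. Some other respiratory chain genes are named beside them. The number of arrays limits the precision.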

Additional observations from a re-analysis of the deposited data

How the results depend on the processing

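Replicate numbers are the labelled batches, so the block pairs arrays. With the replicate block, 0 of the 73 genes were called in each of the 6 genotype comparisons, as without it, so it changed no call. The count also stayed at 0 when any 1 array or any 1 batch was left out. Leaving out arrays moved the median difference to between -0.162 and 0.072 in Ebi3_KO (above 0 without Ebi3_KO replicate 1, and at 0.028 without all of batch 1), -0.239 and -0.011 in Il10_KO, -0.196 and -0.072 in DKO, -0.11 and 0.017 by Ebi3 genotype (above 0 without Ebi3_KO replicate 1 or Il10_KO replicate 3), -0.157 and -0.024 by Il10 genotype and -0.104 and 0.17 for the interaction. With the block, a combination chosen after seeing the data, the ranges were -0.16 to 0.002, -0.174 to -0.017, -0.201 to -0.041, -0.079 to -0.005, -0.11 to -0.046 and -0.024 to 0.137, and leaving out WT replicate 1 gave the upper end of the first 5.

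Between batches, counts with 1 array left out ran from 23 to 36 (batch 2 against 1), 21 to 35 (3 against 1) and 11 to 24 (3 against 2), the last falling to 11 without WT replicate 2, 14 without WT replicate 3 and 12 without Ebi3_KO replicate 3. Medians ran from 0.09 to 0.198, 0.267 to 0.359 and 0.046 to 0.174. Median centring gave medians of -0.215 in DKO, -0.161 by Il10 genotype, 0.427 in batch 2 against 1 and 0.683 in batch 3 against 1, where 54 genes were called. The mean over all probe sets gave 0.15 in batch 3 against 1. Without the trend, 14 genes were called in batch 3 against 2. Averaging probe sets also ended the batch 2 calls of Ndufaf4 (0.37) and Ndufb9 (0.19), and the batch 3 against 2 call of Sdhd (0.40). The cause was not tested. Of the values for named genes under alternatives, 1073 stayed on their side of the threshold and 50 lost the call, with 0 reversed. The 1073 include genotype comparisons, where no gene was called and so no call could be lost. All 50 lost calls were in comparisons of batches.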
